A study of Caenorhabditis elegans with 3 samples.

Results

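The genes described here encode G protein-coupled receptors for neuropeptides and for small transmitters in the nematode Caenorhabditis elegans. They were taken by name, from probes of a single gene. The symbol had to be egl-6, or npr, frpr, dmsr, ckr, tkr, ntr, pdfr, sprr, gnrr, nmur, aexr, trhr, ser, dop, octr, tyra, gar or mgl followed only by a hyphen and a number. This gave 112 genes, on 115 probes, of the 15168 genes that had a probe of their own. The rule uses names and no measured value, but it was chosen with earlier results of these data known. The gar genes encode muscarinic acetylcholine receptors and the mgl genes metabotropic glutamate receptors, so the set is wider than peptides and amines.

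The measured samples were 3 preps of adult hermaphrodite mRNA, called TP11 adult w/ emb 2 in the labels, where w/ emb was taken to mean that the worms held embryos. Each was set against mixed wt mRNA, the reference, on its own array with 2 colours, and the preps form 1 group. The labels give neither the genotype, strain, age nor culture of the adults, and not the stages mixed in the reference. Separate cultures are not stated for the preps, so the p-values cover only the spread among these 3 samples, and that spread may be technical.

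Neuropeptides are cut from larger precursor proteins, packed in dense-core vesicles and released mostly by neurons. They act over a distance on seven-helix receptors that switch on heterotrimeric G proteins. Serotonin, dopamine, tyramine and octopamine act on receptors of the same kind, beside a few ion channels that they open directly. In the worm these receptors sit mainly on neurons, and some on muscle, intestine and gonadal sheath, where they set locomotion, feeding, sleep, egg laying and fat storage.

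All values are log2 ratios of adult over reference RNA after each array was centred on its median, so −1 is a 2-fold lower share in the adults. They are differences between RNA samples and say nothing about which receptor is the more abundant. The labels name no dyes, and the direction follows the order of the channels: it is likely, not settled. Of 12 oocyte and eggshell genes, 10 were higher in this direction and 0 lower, against 15.8% and 16.2% of all probes. Their median was 1.55, and the highest was rme-2, the yolk receptor gene (2.45 ± 0.74, SD, n = 3). The genes egg-1 (−0.31 ± 0.07) and cpg-2 (0.04 ± 0.02) did not pass. This list was chosen with earlier results of these data known. Over all deposited values of each array, prep 1 had the widest ratios (robust SD 0.773), followed by prep 2 (0.484) and prep 3 (0.370). Whole worms were measured, so fewer cells of a type, less RNA per cell and a larger share of RNA from other cells cannot be told apart.

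Many receptor genes were lower in the adults than in the reference, and 1 was higher. In limma, with p-values adjusted over all 19710 probes and a threshold of 0.05, 42 of the 112 genes (37.5%) were lower, against 16.2% of all probes. A single receptor gene (0.893%) was higher, against 15.8% of all probes. In either direction 43 passed, against 32% of all probes, and 69 did not. The means of those 69 lay between −0.54 and 0.25, and 56 of them were negative. The median log2 ratio of the receptor genes was −0.35, against −0.0012 over all probes. The ratio was negative on all 3 arrays for 73 of the 112 genes, and this held for 30.7% of all probes. It was positive on all 3 for 4 genes, and for 30.2% of all probes.

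The differences were moderate. Those of the 42 lower genes ran between 1.40-fold and 3.09-fold, with a median of 1.68-fold. Of the 112 genes, 9 (against 6.73% of all probes) were lower by at least 2-fold and 0 were higher by that much (against 5.59%). Of the 112 genes, 0 were among the 100 probes with the lowest mean ratio and 5 among the lowest 1000, out of 19710 probes. These counts are near the shares that the lowest 100 and 1000 make up of all probes. The 95% interval of a single receptor gene's mean reached from 0.37 to 0.59 to either side of it, with a median of 0.40. It is not adjusted for the number of probes, and the adjusted threshold was stricter. The passing receptor gene with the smallest difference was ser-3, at −0.49, so no receptor gene with a smaller one passed. Some with larger ones did not pass either, such as dmsr-5 (−0.54 ± 0.36) and npr-15 (−0.53 ± 0.45), as a call also depends on the spread.

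The size of the difference from the reference varied between the preps. The median of the receptor genes was −0.56 on prep 1, −0.36 on prep 2 and −0.20 on prep 3. Among the 42 lower genes prep 1 held the lowest value in 33 and prep 2 in 9. Prep 3 held the highest value in 33 of them. The count of lower receptor genes was 25 without prep 1, 28 without prep 2 and 36 without prep 3, beside 14.2%, 12.3% and 14.7% of all probes. The calls of 17 genes held in all 10 settings that refit the model, which are the reported one and 9 alternatives, and those 17 genes were lower by 1.60-fold or more. A 2-fold minimum was a further alternative, and under it 9 of the 42 genes counted as lower.

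**Figure D1:**
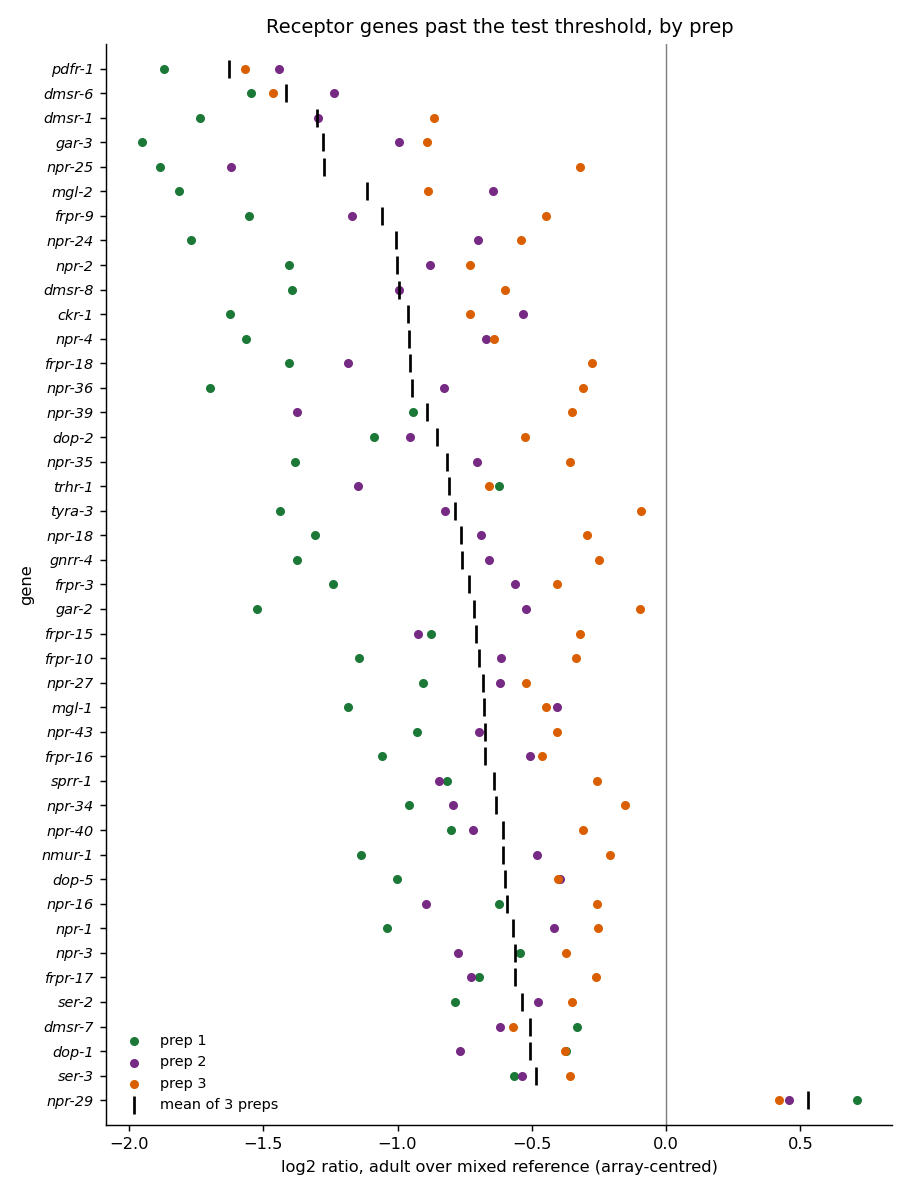
Log2 ratios of adult over mixed reference RNA (horizontal axis) for the 43 receptor genes past the threshold (rows, ordered by mean), with 1 point for each prep and a bar at the mean. The 42 lower genes lie left of 0 on all 3 preps, prep 1 is the lowest point in 33 of them, and npr-29 alone lies to the right.

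**Figure D2:**
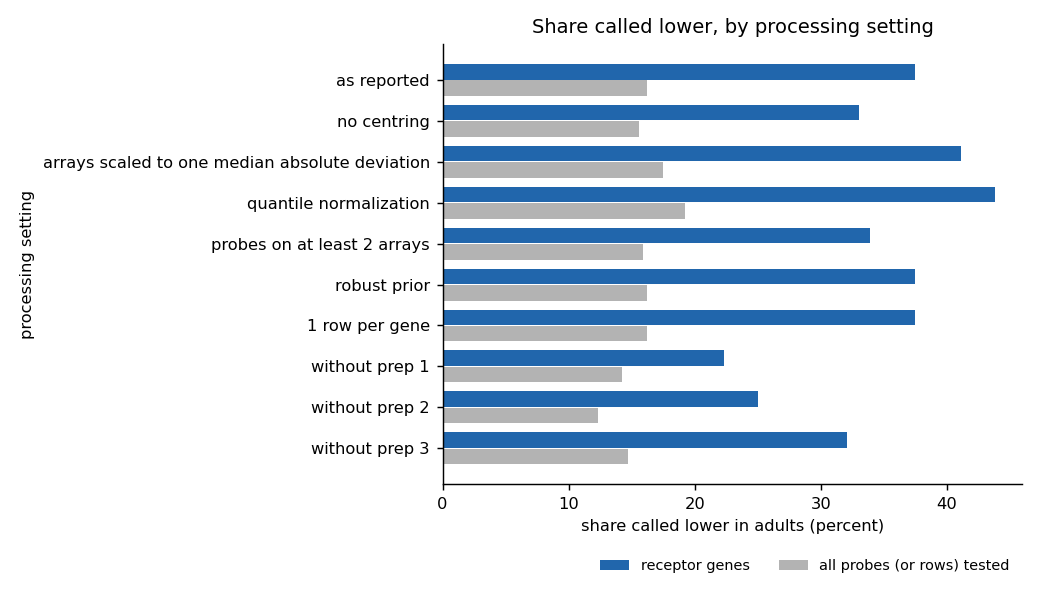
Share of the receptor genes and of all probes called lower in limma (horizontal axis, percent) in each of 10 settings (rows). The share of the receptor genes is above that of all probes in each setting, and the gap is narrowest without prep 1, at 22.3% and 14.2%.

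The npr genes, the largest family with 41 genes, encode receptors related to those for neuropeptide Y and other peptides. Of them 15 (36.6%) were lower and 1 (2.44%) was higher, against 16.2% and 15.8% of all probes. The other 25 did not pass, and the median was −0.37. The lowest, npr-25, stood at −1.88 on prep 1, −1.62 on prep 2 and −0.32 on prep 3. Its mean of −1.27 ± 0.84 had an adjusted p of 0.0041 in limma. Preps 1 and 2 lay far below prep 3, and the SD is the largest among the lower genes. The gene npr-24 had −1.77, −0.70 and −0.54 (mean −1.004 ± 0.67), and npr-36 had −1.70, −0.83 and −0.31 (mean −0.945 ± 0.70). Both had their lowest value on prep 1.

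For npr-2 the ratios were −1.40, −0.88 and −0.73, with a mean of −1.003 ± 0.35 and an adjusted p of 0.0023 in limma. For npr-4, a receptor for FLP-18 peptides that acts in fat storage and foraging, they were −1.57, −0.67 and −0.64, with a mean of −0.96 ± 0.53 and an adjusted p of 0.0056. The lower npr genes also held npr-39 (−0.89), npr-35 (−0.81), npr-18 (−0.76), npr-27 (−0.68), npr-43 (−0.68), npr-34 (−0.63), npr-40 (−0.61) and npr-16 (−0.59). The gene npr-1, whose natural variants set whether worms feed alone or in groups, had ratios of −1.04, −0.42 and −0.25, with a mean of −0.57 ± 0.41 and an adjusted p of 0.0469. The FLP-15 receptor gene npr-3 had a mean of −0.56 ± 0.20 and an adjusted p of 0.0302.

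The only receptor gene higher in the adults was npr-29, with 0.71, 0.46 and 0.42 on the 3 preps (mean 0.53 ± 0.16, or 1.44-fold, adjusted p = 0.0368 in limma). All 3 values were positive, but the gene did not pass without prep 1, without prep 2 or without prep 3. Besides npr-29, the calls of npr-1, npr-16, npr-18, npr-34 and npr-40 were lost without prep 1 (adjusted p from 0.056 to 0.167, in limma, these ranges counting npr-29 too). Without prep 2 those of npr-1, npr-3, npr-16, npr-34, npr-39, npr-40 and npr-43 were lost (0.059 to 0.246), and without prep 3 that of npr-3 (0.072 to 0.122). The call of npr-1 was also lost without centring (adjusted p = 0.055) and with probes on at least 2 arrays (0.052). Among npr genes that did not pass, means ran from −0.53 for npr-15 to 0.21 for npr-32. The gene npr-12 (−0.48 ± 0.02) had nearly the same ratio on each prep and an adjusted p of 0.0512.

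The frpr genes encode receptors related to FMRFamide peptide receptors of insects. Their median was −0.47, and 7 of 15 (46.7%) were lower, against 16.2% of all probes, while the other 8 did not pass. The lowest was frpr-9, with −1.55 on prep 1, −1.17 on prep 2 and −0.45 on prep 3 (mean −1.06 ± 0.56, adjusted p = 0.0038 in limma). The gene frpr-18, a receptor for FLP-2 peptides that promotes arousal, had −1.40, −1.19 and −0.28 (mean −0.96 ± 0.60, adjusted p = 0.0075). In both, prep 3 stood well above the other preps. The others were frpr-3 (−0.74 ± 0.44), a receptor for FLP-20 peptides, frpr-15 (−0.71 ± 0.33), frpr-10 (−0.70 ± 0.41), frpr-16 (−0.67 ± 0.33) and frpr-17 (−0.56 ± 0.26). Without prep 1 the calls of frpr-3, frpr-10, frpr-16 and frpr-17 were lost (adjusted p from 0.052 to 0.072), and without prep 2 those of frpr-15 and frpr-17 (0.095 to 0.200). The genes that did not pass ran from frpr-5 (−0.47 ± 0.45) to frpr-14 (0.18 ± 0.28).

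The dmsr genes are related to the insect receptors for myosuppressin, and egl-6 encodes a receptor for FLP-10 and FLP-17 peptides that inhibits egg laying. Their median was −0.25, with 4 of 14 (28.6%) lower, against 16.2% of all probes, and 10 not past the threshold. For dmsr-6 the ratios were −1.54, −1.24 and −1.47, with a mean of −1.42 ± 0.16 (2.67-fold lower) and an adjusted p of 1.76e-04 in limma. For dmsr-1, the receptor through which FLP-13 peptides induce sleep after stress, they were −1.73, −1.30 and −0.86, with a mean of −1.30 ± 0.44 and an adjusted p of 7.06e-04. For dmsr-8 they were −1.39, −0.99 and −0.60, with a mean of −0.99 ± 0.40. These 3 genes kept their calls whichever prep was left out. The fourth, dmsr-7 (−0.51 ± 0.15), did not pass without prep 2 (adjusted p = 0.229), prep 3 (0.233) or centring (0.052). Among the 10 that did not pass, means ran from −0.54 ± 0.36 for dmsr-5 to 0.16 ± 0.63 for egl-6. The gene dmsr-5 had an adjusted p of 0.0519 in limma, and it passed without prep 2 and after scaling or quantile normalization.

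The genes dmsr-10 to dmsr-15 lie close together on chromosome V in the RefSeq annotation (assembly WBcel235), with at most 6 protein-coding genes between any pair of them. In limma 0 of these 6 passed, against 32% of all probes in either direction, and 0 had an unadjusted p under 0.05. Their means lay between −0.35 (dmsr-11) and 0.11 (dmsr-14), with a median of −0.05. Of the other 7 dmsr genes 4 were lower, with a median of −0.54, and the highest mean was −0.20 (dmsr-4), so that the ranges of the means overlap. This division was made after the values were seen and was not tested, and neighbouring relatives may share probe binding. The gene egl-6 had 0.80, −0.46 and 0.13, with preps on both sides of 0 and a 95% interval of its mean from −0.35 to 0.66.

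**Figure D3:**
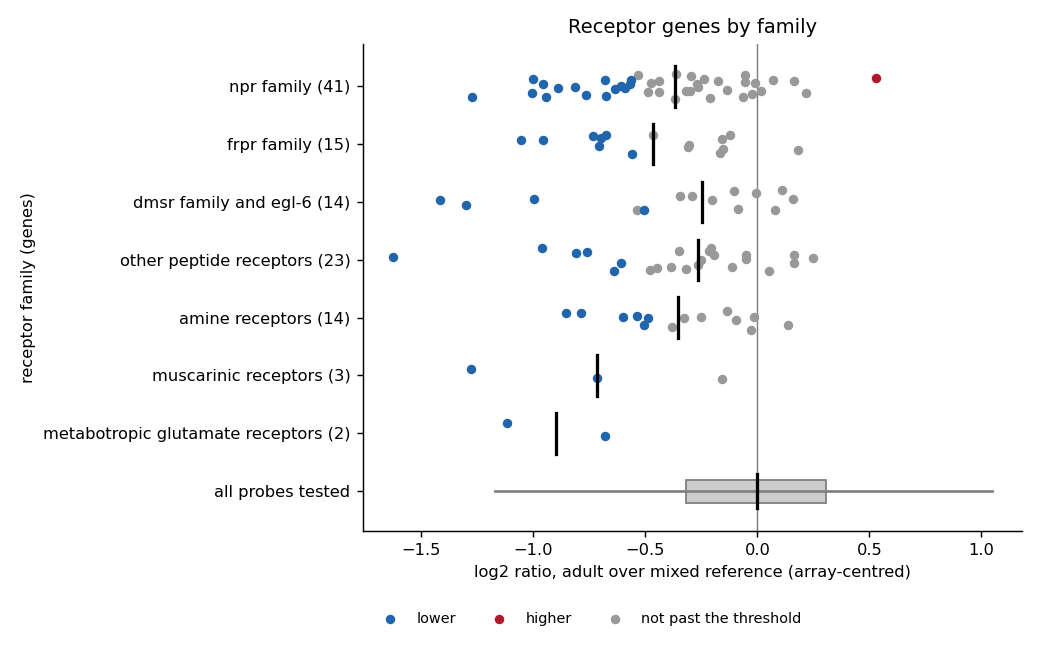
Mean log2 ratio of adult over mixed reference RNA for each receptor gene (points) by family, with the number of genes in brackets and a bar at each family's median. Blue points were lower and the red point higher in limma, and the lowest row gives all probes tested as the median, the interquartile range (box) and the range from the 5th to the 95th percentile (line).

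Another 23 genes encode receptors related to those for named peptide hormones of other animals. Their median was −0.27, with 6 (26.1%) lower, against 16.2% of all probes, and 17 not past the threshold. The count of lower ones was 4, 3 and 6 without preps 1, 2 and 3, beside 14.2%, 12.3% and 14.7% of all probes. The gene pdfr-1 encodes the receptor for pigment-dispersing factor peptides, which promote roaming and mate searching. It stood at −1.87, −1.44 and −1.57 on preps 1, 2 and 3, and its mean of −1.63 ± 0.22 (3.09-fold lower, 95% interval −2.02 to −1.24) was the lowest of all 112 genes, and limma gave an adjusted p of 9.20e-05. The cholecystokinin receptor-related gene ckr-1 had −1.63, −0.53 and −0.73 (mean −0.96 ± 0.58, adjusted p = 0.0068). The ratios of pdfr-1 were close to each other, while ckr-1 was much lower on prep 1 than on the other preps.

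Its relative ckr-2 had −0.32, −0.65 and −0.47, and its mean of −0.48 ± 0.16 did not pass (adjusted p = 0.0554 in limma). It passed without prep 1 and after scaling or quantile normalization. The worm counterpart of the thyrotropin-releasing hormone receptor gene, trhr-1, which promotes growth, was lower (−0.81 ± 0.29), as were gnrr-4 (−0.76 ± 0.57), sprr-1 (−0.64 ± 0.33), related to the insect sex peptide receptor, and the neuromedin U receptor-related gene nmur-1 (−0.61 ± 0.48). Without prep 1 the calls of gnrr-4, nmur-1 and sprr-1 were lost (adjusted p from 0.059 to 0.166), and without prep 2 those of nmur-1, sprr-1 and trhr-1 (0.062 to 0.143). Of the 7 gnrr genes, related to the receptors for gonadotropin-releasing hormone and adipokinetic hormone, gnrr-4 alone passed, and their median was −0.22. That share of 14.3% is near the 16.2% of all probes that were lower. The highest of the 23 was the tachykinin receptor-related gene tkr-3 (0.38, 0.17 and 0.20), whose mean of 0.25 ± 0.11 did not pass (adjusted p = 0.312). The probes of ntr-1, which encodes a receptor for the vasopressin-like peptide nematocin, stood at 0.26 and 0.07 and neither passed.

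Of 14 receptor genes for serotonin, dopamine, tyramine and octopamine, 6 (42.9%) were lower, against 16.2% of all probes. The count of lower ones was 2, 3 and 2 without preps 1, 2 and 3, beside 14.2%, 12.3% and 14.7% of all probes. In the reported fit 8 were not past the threshold, and the median was −0.35. The lowest was dop-2, a D2-like dopamine receptor also used as an autoreceptor on dopamine neurons. It had −1.09, −0.95 and −0.52 (mean −0.85 ± 0.29, adjusted p = 0.0047 in limma) and is the amine receptor gene whose call held in all 10 of those settings, though at 1.81-fold it falls short of a 2-fold minimum. The D1-like receptor gene dop-1 had −0.37, −0.77 and −0.38 (mean −0.51 ± 0.23, adjusted p = 0.0493), and the dopamine receptor-related gene dop-5 −1.001, −0.39 and −0.40 (mean −0.60 ± 0.35, adjusted p = 0.0319). The means of dop-6 (−0.13 ± 0.11), the D2-like gene dop-3 (−0.10 ± 0.32) and dop-4 (−0.03 ± 0.18) did not pass. Whether dop-2 differed from its relatives was not tested.

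The tyramine receptor genes tyra-3 (−1.44, −0.82 and −0.09, mean −0.78 ± 0.67, adjusted p = 0.0258) and ser-2 (−0.79, −0.48 and −0.35, mean −0.54 ± 0.22, adjusted p = 0.0389) were lower in limma. The third, tyra-2 (−0.33 ± 0.19), did not pass. The octopamine receptor gene ser-3 was lower by a small amount (−0.57, −0.54 and −0.36, mean −0.49 ± 0.11, adjusted p = 0.0499), and the octopamine receptor gene octr-1 had a mean of −0.01 ± 0.23. Without prep 1 the calls of dop-5, ser-2, ser-3 and tyra-3 were lost (adjusted p from 0.073 to 0.133), without prep 2 those of dop-1, ser-2 and ser-3 (0.116 to 0.337), and without prep 3 those of dop-1, dop-5, ser-2 and ser-3 (0.054 to 0.151). Calls of dop-1 and ser-3 were lost without centring and with probes on at least 2 arrays as well (0.052 to 0.060).

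Of the 3 serotonin receptor genes measured, 0 passed in limma, against 32% of all probes in either direction, and 0 had an unadjusted p under 0.05. The gene ser-1, which acts in vulval muscle during egg laying, had −0.89, 0.15 and −0.01, so that prep 1 alone lay well below 0 (mean −0.25 ± 0.56, 95% interval −0.73 to 0.23). The gene ser-7, another serotonin receptor gene of pharynx and egg-laying muscle, had 0.49, 0.01 and −0.09 (mean 0.14 ± 0.31, 95% interval −0.27 to 0.54). The gene ser-5 had −0.53, −0.08 and −0.53 (mean −0.38 ± 0.26). These intervals do not show that the genes were at the level of the reference.

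Of the 3 muscarinic acetylcholine receptor genes 2 were lower, against 16.2% of all probes, with a median of −0.71. The gene gar-3, which acts through Gq in pharyngeal muscle and motor neurons, was measured by 2 probes, with means of −1.47 ± 0.43 and −1.08 ± 0.75, and both passed (adjusted p = 3.23e-04 and 0.0068 in limma). Its average over the probes was −1.95 on prep 1, −0.995 on prep 2 and −0.89 on prep 3. The gene gar-2 had −1.52, −0.52 and −0.10 (mean −0.71 ± 0.73, adjusted p = 0.0468). Prep 1 carried most of that difference: without prep 1 the mean was −0.31 and the adjusted p 0.240. The call of gar-2 was lost without centring (0.052) and with probes on at least 2 arrays (0.055) too. For gar-1 (0.28, −0.44 and −0.32) the preps lay on both sides of 0.

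Both metabotropic glutamate receptor genes were lower, against 16.2% of all probes. The ratios of mgl-2 were −1.81, −0.65 and −0.89 (mean −1.12 ± 0.62, adjusted p = 0.0035 in limma), and those of mgl-1 were −1.18, −0.41 and −0.45 (mean −0.68 ± 0.44, adjusted p = 0.0234). The call of mgl-1 was lost without prep 1 (adjusted p = 0.080).

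The genes were unevenly spread over the chromosomes, as annotated in RefSeq WBcel235. Of the 112, 47 (42.0%) are X-linked, against 14.9% of all genes with a probe. X-linked genes are known to be under-represented among genes active in the germ line. Over all X-linked probes 21.1% were lower and 5.60% higher, with a median of −0.16, and over all autosomal probes 17.1% were lower and 17.8% higher, with a median of 0.0044. Among the receptor genes 15 of 47 X-linked ones (31.9%) were lower, with a median of −0.30, and 27 of 65 autosomal ones (41.5%), with a median of −0.47. By autosome, 4 of 10 were lower on I, 3 of 12 on II, 2 of 9 on III, 5 of 11 on IV and 13 of 23 on V. Shares of all probes were taken for the autosomes together (17.1%) and not for each, so a difference between autosomes cannot be judged from these counts. The part of chromosome linkage in the result was not tested.

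Genes that other steps of the same pathways need were set beside the receptors, in lists chosen with earlier results of these data known. Of 15 pan-neuronal genes measured, 8 were lower and 0 higher, against 16.2% and 15.8% of all probes, with a median of −0.63. By prep this median was −1.02, −0.83 and −0.43 on preps 1, 2 and 3, in the same order as that of the receptor genes and as the width of the ratios over all probes. The synaptotagmin gene snt-1 (−1.88 ± 0.46) and the SNAP-25 gene ric-4 (−1.68 ± 0.27) were lowest. The call of unc-10 rests on 1 of its 2 probes and was lost without prep 1 (adjusted p = 0.159). How far the neuronal share of the RNA had a part in the receptor result was not tested. The table holds ratios only, so a summed level of such markers cannot be given.

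Of 26 peptide precursor genes in the list 17 were measured. Of these 15 were lower, against 16.2% of all probes, with a median of −1.24 (by prep −1.43, −1.65 and −0.88, lowest on prep 2). The lowest were flp-1 (−3.42 ± 0.44) and flp-24 (−2.14 ± 0.39), while lury-1 (−0.01 ± 0.09) and pdf-1 did not pass. The call of snet-1 was lost without prep 3 (adjusted p = 0.100). Genes for peptide processing and dense-core vesicles were lower for 6 of 11, against 16.2% of all probes, with a median of −0.71. By prep that median was −0.42, −0.70 and −0.79, lowest on prep 3, unlike the order in the receptor genes. The amidating lyase gene pgal-1 (−3.03 ± 0.12) and the vesicle protein gene ida-1 (−2.53 ± 0.30) were lowest, whereas the carboxypeptidase E gene egl-21 (0.01 ± 0.52) and the secretion factor gene unc-31 (−0.08 ± 0.17) did not pass. Without prep 3 the call of unc-108 was lost (adjusted p = 0.154).

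Genes for the synthesis and transport of small transmitters had a median of 0.02, with 3 of 11 (27.3%) lower and 1 (9.09%) higher. Over all probes 16.2% were lower and 15.8% higher. The biopterin synthesis gene cat-4, needed to make dopamine and serotonin, was lowest (−1.77 ± 0.55), followed by the vesicular glutamate transporter gene eat-4 (−0.78 ± 0.18). The tyrosine decarboxylase gene tdc-1, which makes tyramine and has a known site of expression in gonadal sheath cells, was higher (0.88 ± 0.32, adjusted p = 0.0044 in limma).

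Of 24 G protein subunit genes 6 (25%) were lower and 1 (4.17%) higher, against 16.2% and 15.8% of all probes (median −0.34). The lower ones were alpha subunit genes, with gpa-17 (−1.47 ± 0.33) and odr-3 (−1.25 ± 0.64), an alpha subunit of sensory cilia, lowest. The broadly expressed alpha subunit genes goa-1 (−0.03 ± 0.16), gsa-1 (−0.01 ± 0.21) and egl-30 (0.26 ± 0.22) did not pass. The beta subunit gene gpb-1, which also acts in spindle positioning in the embryo, was higher (0.73 ± 0.63), a call lost without prep 1 (adjusted p = 0.134). The call of gpa-2 was lost without prep 2 (0.065). Of 25 genes for regulators and effectors of G proteins 8 (32%) were lower (5 without prep 1) and 1 (4%) higher, with a median of −0.26. The phosphodiesterase gene pde-4 (−1.32 ± 0.24) and the RGS gene eat-16 (−0.84 ± 0.26) were lowest. The higher one, rgs-7 (0.56 ± 0.27), lost its call whichever prep was left out, and calls of unc-73 and pde-3 rest on 1 probe each. Among 3 channels opened by amines, lgc-50 was lower (−0.70 ± 0.49), a call lost without prep 1 (adjusted p = 0.086).

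**Figure D4:**
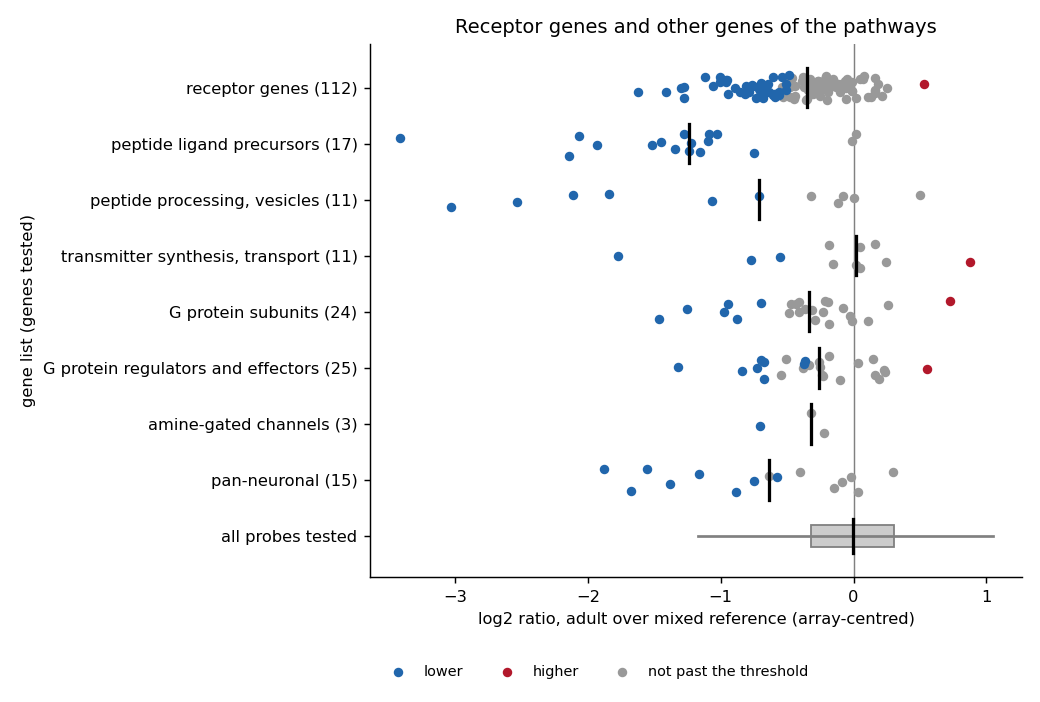
Mean log2 ratio of adult over mixed reference RNA for each gene (points) in the receptor set and in 7 lists of other genes, with the number tested in brackets and a bar at each median. The lists were chosen with earlier results of these data known. Blue points were lower and red points higher in limma, and the median is −0.35 for the receptor genes, −1.24 for the peptide precursor genes and 0.02 for transmitter synthesis and transport. The lowest row gives all probes tested as the median, the interquartile range (box) and the range from the 5th to the 95th percentile (line).

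Receptor genes were also read beside the genes for their known ligands. The pairs were picked after the values were seen, so their counts only describe them. Among 12 such pairs of a peptide and a receptor gene, 6 of 10 receptor genes and 9 of 10 precursor genes were lower, against 16.2% of all probes. The receptor gene pdfr-1 had −1.63 ± 0.22, its ligand gene pdf-2 −1.34 ± 0.63, and its other ligand gene pdf-1 0.02 ± 0.28, with preps on both sides of 0 (0.19, −0.30 and 0.16). The genes ckr-1 (−0.96 ± 0.58) and ckr-2 (−0.48 ± 0.16) stood beside nlp-12 at −2.07 ± 0.58. The gene dmsr-1 (−1.30 ± 0.44) stood beside flp-13 at −1.15 ± 0.62, whereas frpr-4, another receptor gene for FLP-13 peptides, had −0.31 ± 0.21 and did not pass. The gene frpr-18 (−0.96 ± 0.60) stood beside flp-2 at −1.24 ± 0.34. The npr-1 gene (−0.57 ± 0.41) stood beside flp-21 at −1.03 ± 0.42, and npr-3 (−0.56 ± 0.20) beside flp-15 at −1.52 ± 0.13. For gnrr-1 (−0.39 ± 0.25), which did not pass, the ligand gene nlp-47 was at −1.93 ± 0.13. The gene egl-6 (0.16 ± 0.63) stood beside flp-10 at −1.09 ± 0.37 and flp-17 at −1.45 ± 0.50. Ratios of different genes come from different probes, and the differences within pairs were not tested.

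For the small transmitters the enzyme gene was taken. The tyramine receptor genes ser-2 (−0.54 ± 0.22) and tyra-3 (−0.78 ± 0.67) were lower, and tdc-1 (0.88 ± 0.32) was higher. The dopamine receptor genes dop-1 and dop-2 were lower, while the tyrosine hydroxylase gene cat-2 (0.24 ± 0.10) did not pass. The octopamine receptor gene ser-3 was lower, and the tyramine beta-hydroxylase gene tbh-1, which makes octopamine, was at 0.16 ± 0.29 and did not pass. On the serotonin side neither the tryptophan hydroxylase gene tph-1 (−0.16 ± 0.09) nor any of the 3 receptor genes passed. The choline acetyltransferase gene cha-1 was lower (−0.55 ± 0.36, adjusted p = 0.0454 in limma), as were gar-2 and gar-3, but cha-1 did not pass without prep 1 (adjusted p = 0.147), prep 2 (0.101) or centring (0.053).

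**Figure D5:**
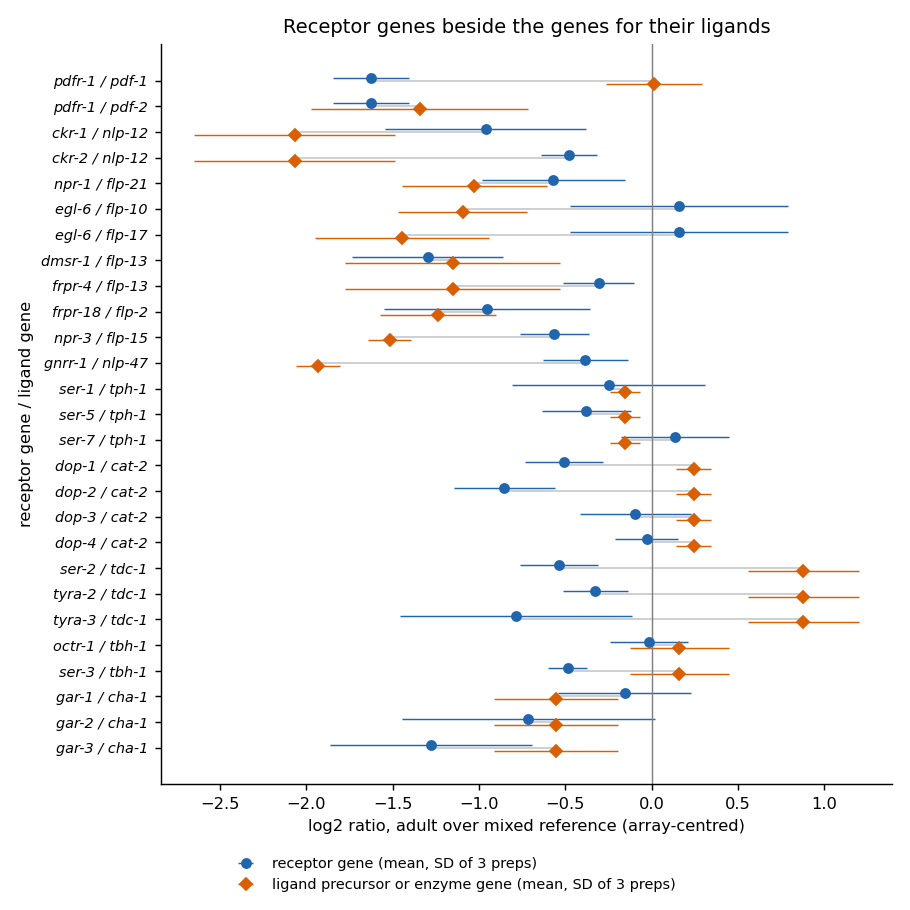
Mean log2 ratio of adult over mixed reference RNA with the SD over 3 preps, for 27 pairs of a receptor gene (circles) and the gene for its ligand's precursor or synthesis enzyme (diamonds). A gene with several partners appears once per pair. In the tyramine pairs the receptor genes lie left of 0 and tdc-1 right of it.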

How the data were processed

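The authors deposited a table of log2 ratios, 1 column for each of 3 arrays and 20000 probes. The log base was read from the values, since 2 to their power gives multiples of 0.001 within 0.00005 for 100% of the ratios under 3. The authors' normalization and centring were not given in the sources used here. Without spot intensities, which are not used here, dim signal in both channels and equal RNA cannot be told apart, and probe sequences are not used here either, so binding to close relatives is unchecked. Deposited column medians were 0.0186, 0.0718 and −0.00868. The number of arrays limits the precision.

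Platform annotation gave 15655 probes with 1 gene. Symbols were updated through RefSeq (WBcel235), by gene ID for 15569, which left all 112 receptor symbols as they were. All 115 receptor probes had values on every array. Arrays were centred on their medians, and the mean of 19710 probes was tested against 0 with limma 3.58.1 in R 4.3.3 (intercept only, two-sided, Benjamini-Hochberg over all probes, threshold 0.05, 2 residual and 8.957 prior degrees of freedom), after a check on simulated data. Probes of a gene were averaged and given their largest adjusted p, and 1 passing probe sufficed for a call. A gene with probes past the threshold in both directions counts in neither. Errors are SDs over 3 preps. Each array carries 1 prep, so prep and any array batch cannot be told apart.

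Named were all receptor genes past the threshold, the highest and lowest others per family, and genes whose probes disagree. In each list of pathway genes, up to 2 of the lowest lower genes and up to 2 of the highest higher ones were named. Of the marker lists for other tissues only rme-2, egg-1 and cpg-2 are named. Alternatives were no centring, scaled arrays, quantile normalization, probes on at least 2 arrays, a robust prior, 1 row per gene, updated symbols, a 2-fold minimum and each prep left out. The ligand pairs and a few further genes were added after values were seen. The members and lists were chosen with earlier results of these data known. Of the marker lists not described with the receptors, 0 of 7 body wall muscle genes passed in limma (median 0.27, 2 with an unadjusted p under 0.05), 2 of 4 pharyngeal muscle genes were lower (−0.45, 1 without prep 1), 1 of 9 intestinal genes was lower and 1 higher (0.19), and 3 of 6 epidermal and cuticle genes were lower and 1 higher (−0.54). Over all probes 16.2% were lower and 15.8% higher. Sequences are not shown here.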

Additional observations from a re-analysis of the deposited data

How the results depend on the processing

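The 42 lower receptor genes became 37 without centring, 46 after scaling the arrays to one median absolute deviation, 49 after quantile normalization, 38 with probes on at least 2 arrays, and 42 with a robust prior, with 1 row per gene and with updated symbols. Of the original 42 genes, 37 stayed lower without centring, 42 after scaling, 42 after quantile normalization and 38 with probes on at least 2 arrays. With single preps left out they ranged from 25 to 36, and 24, 26 and 36 of the 42 stayed lower without preps 1, 2 and 3. With a 2-fold minimum 9 were lower, 0 were higher, and 5 pan-neuronal genes were lower in place of 8. The count of higher receptor genes ranged from 0 to 0 with a prep left out and was 1 in the other fits. The median of the receptor genes ranged from −0.450 to −0.303 with a prep left out and from −0.349 to −0.319 otherwise.

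Among genes given with values, the sign turned for some that did not pass in any fit. With a prep left out, egl-6 ranged from −0.164 to 0.468, ser-7 from −0.042 to 0.250, npr-14 from −0.035 to 0.021, dop-3 from −0.196 to 0.091, dop-4 from −0.102 to 0.073, octr-1 from −0.140 to 0.077, ser-1 from −0.449 to 0.070, aexr-3 from −0.390 to 0.150, pdf-1 from −0.074 to 0.175, lury-1 from −0.061 to 0.027, egl-21 from −0.284 to 0.217, goa-1 from −0.095 to 0.060 and gsa-1 from −0.131 to 0.061. Without centring npr-14 was at 0.020, octr-1 at 0.014, lury-1 at 0.018, goa-1 at 0.000 and gsa-1 at 0.019. After scaling octr-1 was at 0.022, and after quantile normalization npr-14 was at 0.009, octr-1 at 0.017 and gsa-1 at 0.003. The probes of npr-14 had opposite signs (0.11 and −0.13), and neither passed. The causes were not tested. No paired analysis was possible because all samples form 1 group.

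Without intensities, the signal over background behind a ratio is unknown.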

Other observations

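Some receptor genes are direct neighbours in the RefSeq annotation, with 0 protein-coding genes between them, and their ratios can be set side by side. On chromosome V npr-25 (−1.27 ± 0.84) and dop-5 (−0.60 ± 0.35) were both lower. On the X chromosome nmur-1 (−0.61 ± 0.48) was lower beside aexr-3 (−0.19 ± 0.59), and npr-40 (−0.61 ± 0.26) was lower beside ntr-2 (−0.35 ± 0.12), while gnrr-6 (−0.25 ± 0.34) and gnrr-7 (−0.05 ± 0.08) did not pass. The pairs were picked after the values were seen, and differences within them were not tested.

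The order of the 112 receptor genes was partly shared by the preps, as a description across genes that share each array. Pearson's r was 0.640 for preps 1 and 2, 0.589 for preps 1 and 3 and 0.655 for preps 2 and 3, against 0.776, 0.799 and 0.829 over all probes.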
